A study of Mus musculus with 24 samples.

Results

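The change between 8 and 24 h of culture was followed in wild-type CD8+ T cells. This interval was taken as the late phase of activation before the first division, and division itself was not measured in these libraries. The 3 WT libraries taken at 24 h were compared with the 3 WT libraries taken at 8 h, and the mouse number in each library's title ties the later library to the earlier one of the same animal. These 6 libraries, of 24 in the series, were chosen by their labels alone. The WT group is E8i-cre-, Tcf7FL/FL, OTI+ (mice 4 to 6), so its cells carry loxP-flanked Tcf7 alleles without the Cre recombinase and the OT-I transgene for a T cell receptor of a single specificity. The cKO group, used below for 1 comparison, is E8i-cre+, Tcf7FL/FL, OTI+ (mice 1 to 3), in which Cre is driven by the E8i enhancer of the Cd8 locus. Cells came from spleens and lymph nodes by CD8 microbeads and were cultured on plates carrying 1 ug/mL of anti-CD3/anti-CD28 with murine IL2 at 6 ng/mL. The labels used here give no ages. Each library was made from 1000 sorted cells with the population form of Smart-Seq2, which copies full-length polyadenylated RNA.

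A naive T cell is small and quiescent. Signals through the T cell receptor and CD28 first switch on immediate early genes, transcription factors such as MYC and IRF4, and cytokines, and the cell then grows before it enters the cell cycle. Factors of the E2F family turn on the genes of DNA synthesis at the border of G1 and S phase, and a second set of genes, controlled in part by the DREAM and MMB complexes through an element called CHR, is expressed in G2 and mitosis.

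The depth was 8850583 to 9550774 expected counts at 24 h and 5846265 to 8319352 at 8 h. A gene was detected with at least 1 count for 13788 to 13999 symbols at 24 h and 15147 to 16102 at 8 h, of 23420. The ribosomal RNA gene Rn45s took 8.15 to 9.54% of the counts at 24 h and 14.2 to 17.2% at 8 h. On the first principal component of all 24 libraries, which held 53.4% of the variance, the WT 8 h library of mouse 5 lay at 24.7, and those of mice 4 and 6 at 11.8 and 13.3. Counts without that library are given beside the main ones. The 10 markers of CD8 T cells summed to 1812 to 1881 TPM (the deposited abundance unit, scaled by transcript length and to a fixed library total) at 24 h and 2374 to 2703 TPM at 8 h, with 7 of them called lower and Cd8a not called (123, 118 and 126 TPM at 24 h, against 117, 94.4 and 110.5 TPM at 8 h). The B cell markers summed to 16.0 to 18.6 TPM at 24 h and 2.15 to 3.99 TPM at 8 h, nearly all of it Cd79b, while Pax5 was at 0 in all 6 libraries. The part of these RNAs in the results was not tested. Markers of monocytes, neutrophils, NK cells, erythroid cells and platelets summed to at most 5.28 TPM in any of the 6 libraries, and those of dendritic cells to 13.6 to 22.6 TPM at 24 h and 8.86 to 11.5 TPM at 8 h, with Cd74 the most abundant. The 6 CD4 T cell markers summed to 22.3 to 32.4 TPM at 24 h and 19.9 to 34.8 TPM at 8 h, most of it Ccr4 at 24 h and Cd40lg at 8 h, and Cd4 itself was at most 0.35 TPM.

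Of the 11470 genes with enough counts to test, 2825 were called higher at 24 h than at 8 h (24.6%) and 3910 lower (34.1%), in all 6735 (58.7%). Counts of list members in all later paragraphs are read against these shares. A gene is called here at a Benjamini-Hochberg adjusted p under 0.05 in edgeR's quasi-likelihood test. Of all called genes, 2910 (25.4% of genes tested) changed at least 2-fold. Of these, 1272 rose at least 2-fold (11.1% of genes tested) and 1638 fell at least 2-fold (14.3%). Large rises outnumbered large falls only far from the centre: a log2 change of at least 3 was reached by 315 genes upward (2.75%) and by 192 downward (1.67%), against 542 (4.73%) and 601 (5.24%) at a log2 change of at least 2. The direction was the same in all 3 mice for 2795 of the 2825 higher genes and 3804 of the 3910 lower ones. In counts scaled to library size (CPM), 3154 genes were higher at 24 h without overlap (27.5% of genes tested) and 4100 lower (35.7%). Lack of overlap between the times was thus common over all genes, and later statements of it are read against these shares. Without the 8 h library of mouse 5, 6441 genes were called, 2791 higher and 3650 lower.

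The median log2 change over all genes tested was -0.12, and it ran from -0.14 to 0.00072 under the other settings, so small changes are read against that shift. The share of called genes that were higher was 41.9% here and 52.3% in limma on log2(TPM + 1), with 3384 higher and 3087 lower. RLE scaling gave 48.7%, DESeq2 48.5% and removal of Rn45s 50.0%. No filter gave 50.2%, a 5 CPM filter 50.1%, limma on log2(TPM + 0.1) 50.9% and the 2 groups alone 51.0%. The replicate block gave 42.1%, and leaving out libraries 41.3 to 43.6%. The excess of lower calls was therefore smaller or reversed under several settings. RNA is measured as a share of each library and not per cell, and total RNA per cell was not measured. Less of a transcript per cell, fewer cells that hold it and a smaller share of a larger RNA total therefore cannot be told apart. The plot of mean levels shows the spread of the calls around the diagonal.

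**Figure D1:**
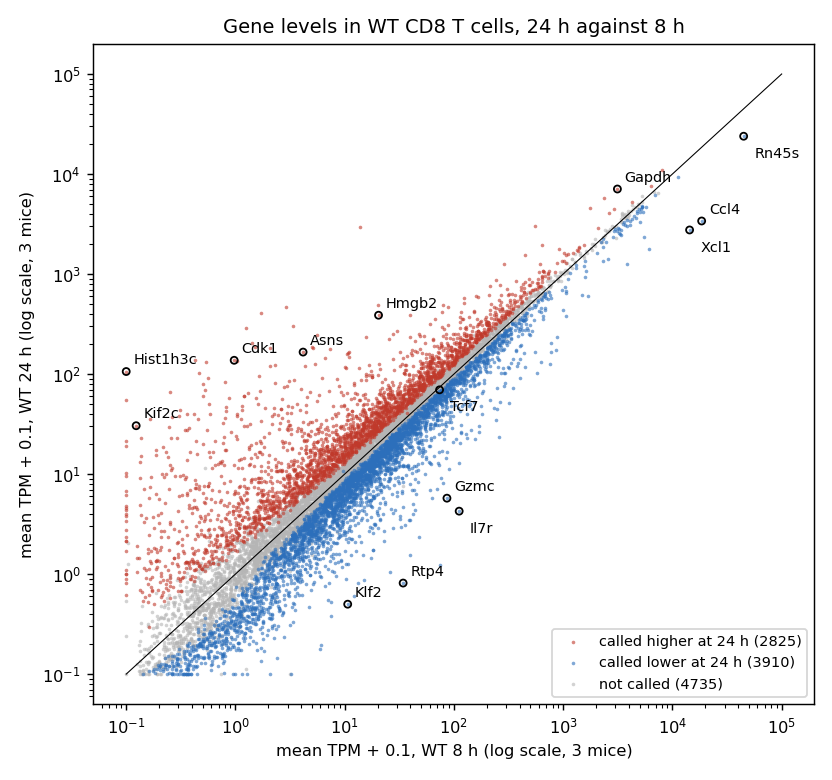
Mean TPM + 0.1 of each of the 11470 genes tested in WT cells at 24 h (vertical, log scale) against 8 h (horizontal, log scale), 3 mice at each time. Red points were called higher at 24 h, blue points lower and grey points neither. Genes near 0 at 8 h that were abundant at 24 h, such as Kif2c and Hist1h3c, form the upper left, and Il7r, Klf2 and Rtp4 lie far below the diagonal.

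All genes in the DNA replication list rose. The list was chosen with earlier results of these data known and does not hold every gene of replication. All 42 of 42 in the list were called higher, with a median log2 change of 2.19 against -0.12 over all genes, and the count and direction were the same under the 13 other settings. Lig1, the ligase that seals Okazaki fragments, had 146, 151 and 139 TPM at 24 h, against 6.87, 5.69 and 7.05 TPM at 8 h (values are in the order of mice 4, 5 and 6 throughout). No 8 h library came near the 24 h libraries, and the fold change was 20.6 (log2 4.37, SE 0.13, adjusted p = 8.1e-25). Chaf1a, a subunit of the chromatin assembly factor that follows the fork, had 57.3, 60.5 and 62.4 TPM at 24 h, against 1.13, 1.07 and 1.11 TPM at 8 h, a 50.0-fold rise (log2 5.64, SE 0.19, adjusted p = 1.1e-23). The helicase loader Cdc6 was almost undetected at 8 h, with 44.1, 42.9 and 43.9 TPM at 24 h, against 0.19, 0.13 and 0.31 TPM at 8 h, and Mcm10, which takes part in activating the helicase, followed the same course (38.4, 39.4 and 37.0 TPM at 24 h, against 0.16, 0.28 and 0.17 TPM at 8 h).

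Within the list the starting level varied widely. The MCM helicase subunit Mcm5 and the sliding clamp Pcna were already expressed before 8 h. Mcm5 averaged 36.2, 42.5, 66.6 and 352 TPM at 0, 4, 8 and 24 h, and Pcna 92.0, 165, 208 and 623 TPM. Pcna therefore rose only 2.79-fold between 8 and 24 h (611, 623 and 635 TPM at 24 h, against 212, 206 and 205 TPM at 8 h), while Cdc6 rose 186-fold from a mean of 0.21 ± 0.0917 TPM (SD, n = 3). The smallest change in the list was that of Pold2, a polymerase delta subunit, at a log2 change of 0.85. Cdc6, Mcm10, Mcm5, Mcm6, Pcna and Pold2 were picked for description after their values were seen.

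RefSeq promoters of 3 of these genes are shown because they carry the E2F element that the group is known for. Each line gives the 250 bases before the annotated start of transcription in GRCm38.p6, the assembly that mm10 names, 5′ to 3′ on the gene's strand. Capitals mark matches on either strand to the E2F words TTTCCCGC, TTTCGCGC, TTTGCCGC and TTTGGCGC, and neighbouring matches that overlap run together. The coordinates are chr1:128359706-128359955 on the minus strand for Mcm6, chr11:98907901-98908150 on the plus strand for Cdc6 and chr8:75109259-75109508 on the plus strand for Mcm5.
Mcm6: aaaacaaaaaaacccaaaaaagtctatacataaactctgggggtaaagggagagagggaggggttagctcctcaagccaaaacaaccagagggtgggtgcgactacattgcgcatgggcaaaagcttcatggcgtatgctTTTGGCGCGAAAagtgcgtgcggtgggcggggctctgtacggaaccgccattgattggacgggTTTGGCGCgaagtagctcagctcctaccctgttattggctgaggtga
Cdc6: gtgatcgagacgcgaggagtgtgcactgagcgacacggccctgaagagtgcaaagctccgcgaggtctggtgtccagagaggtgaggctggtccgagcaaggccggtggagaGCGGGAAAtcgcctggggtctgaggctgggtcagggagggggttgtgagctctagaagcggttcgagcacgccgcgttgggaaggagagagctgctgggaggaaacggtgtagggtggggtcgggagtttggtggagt
Mcm5: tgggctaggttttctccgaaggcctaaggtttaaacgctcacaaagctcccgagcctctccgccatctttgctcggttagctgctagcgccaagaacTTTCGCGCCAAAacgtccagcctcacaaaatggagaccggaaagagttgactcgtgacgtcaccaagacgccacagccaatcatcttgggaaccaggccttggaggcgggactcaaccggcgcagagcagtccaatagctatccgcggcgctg
Promoter windows of 300 bases, 250 before and 50 after the start, were found for 34 of the 42 genes of the list, 40 windows in all. An E2F word stood in 14 of these 40 windows (35.0%), against 4.09% of the windows of all genes tested and 2.26% of the 32851 windows of the whole table. This is a description of the letters, with no test. Mcm6 itself had 566, 593 and 556 TPM at 24 h, against 129, 118 and 127 TPM at 8 h.

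Genes of nucleotide supply for DNA changed along with those of replication, in both directions. Of 15 genes, 10 rose and 4 fell. Tk1, the S phase thymidine kinase, had 131, 147 and 127 TPM at 24 h, against 1.37, 0.31 and 1.12 TPM at 8 h, and the groups lie more than an order of magnitude apart (log2 7.15, SE 0.24, adjusted p = 1.0e-23). Rrm2, the cell-cycle-controlled subunit of ribonucleotide reductase that was picked after its values were seen, had 458, 468 and 482 TPM at 24 h, against 2.70, 2.95 and 2.75 TPM at 8 h (log2 7.26, SE 0.35, adjusted p = 8.6e-12). Samhd1, which breaks dNTPs down, had 26.5, 28.4 and 26.9 TPM at 24 h, against 148, 127 and 154 TPM at 8 h, a 5.74-fold fall (log2 -2.52, SE 0.18, adjusted p = 3.4e-10). The others that fell were Tk2 and Dguok, mitochondrial nucleoside kinases, and Rrm2b, the p53-controlled subunit of the reductase, with log2 changes of -1.02, -0.50 and -0.56. Rrm2b was called in only 2 of the 13 other settings, and Dguok in 12.

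Nearly all genes in the mitotic list, chosen in the same way, rose, most of them by a wide margin. Of 50 tested, 49 were called higher and 0 lower, with a median log2 change of 5.11 that ran from 4.03 to 5.25 under the other settings. Cdk1, the kinase that drives entry into mitosis, had 136, 135 and 139.9 TPM at 24 h, against 0.71, 0.69 and 1.22 TPM at 8 h (log2 7.14, SE 0.20, adjusted p = 5.1e-25). Its 8 h values are at the level of 0 and 4 h, where it averaged 0.883 ± 0.287 and 0.867 ± 0.529 TPM (SD, n = 3). Kif11, the motor that separates the spindle poles, had 33.8, 35.7 and 37.9 TPM at 24 h, against 0.31, 0.22 and 0.53 TPM at 8 h (log2 6.54, SE 0.21, adjusted p = 3.6e-24). Both genes were low in every 8 h library and high in every 24 h library. Ube2c, the ubiquitin-conjugating enzyme of the anaphase-promoting complex, had 389, 424 and 413 TPM at 24 h, against 1.62, 1.29 and 1.92 TPM at 8 h (log2 7.81, SE 0.25, adjusted p = 4.8e-21). Nusap1, a spindle protein, had 64.3, 64.3 and 69.9 TPM at 24 h, against 0.1, 0 and 0.36 TPM at 8 h (log2 8.57, SE 0.47, adjusted p = 4.7e-12).

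Several mitotic genes had next to no reads at 8 h, so that a fitted fold is not a bound. Kif2c, a microtubule depolymerase at centromeres, had 29.9, 29.1 and 31.9 TPM at 24 h, against 0, 0 and 0.07 TPM at 8 h, from 1488 counts at 24 h and 1 count at 8 h, a ratio of 1058 with a 95% counting interval of 189.6 to 41807. The checkpoint kinase Bub1 had 30.2, 45.9 and 29.5 TPM at 24 h, against 0.2, 0 and 0 TPM at 8 h, from 2701 and 3 counts, a ratio of 640.0 (219 to 3105). For the phosphatase Cdc25c, which activates CDK1, the counts were 499 at 24 h and 1 at 8 h and the ratio 355 (63.4 to 14038). The 1 member that was not called was Pttg1, securin, with 75.2, 73.8 and 73.3 TPM at 24 h, against 63.2, 57.8 and 58.7 TPM at 8 h (log2 0.15, SE 0.14, adjusted p = 0.34). It was picked after its values were seen, and stood at 93.9 ± 17.5 TPM at 0 h (SD, n = 3).

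Promoters of 2 mitotic genes are shown for the CHR element, which is known from genes of G2 and mitosis, and for the CCAAT box often found near it. They were picked because their stretches hold both elements, so this presence was fixed by the choice. Capitals mark matches on either strand to the CHR words TTTGAA and TTCGAA and to the CCAAT box, CCAAT. The 250 bases lie at chr10:69352913-69353162 on the minus strand for Cdk1 and at chr19:37376132-37376381 on the plus strand for Kif11.
Cdk1: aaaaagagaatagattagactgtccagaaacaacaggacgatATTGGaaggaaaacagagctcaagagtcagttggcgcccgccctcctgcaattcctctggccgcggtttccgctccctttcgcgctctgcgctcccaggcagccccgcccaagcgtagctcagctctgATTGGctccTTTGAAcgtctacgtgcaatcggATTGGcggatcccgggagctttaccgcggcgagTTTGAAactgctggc
Kif11: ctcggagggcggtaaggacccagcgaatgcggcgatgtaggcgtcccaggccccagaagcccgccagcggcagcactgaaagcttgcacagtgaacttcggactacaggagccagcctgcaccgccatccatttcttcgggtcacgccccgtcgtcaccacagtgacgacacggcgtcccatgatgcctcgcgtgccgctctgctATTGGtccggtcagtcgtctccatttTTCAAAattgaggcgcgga
A CHR word stood in 36 of the 48 windows found for 43 of the 50 mitotic genes (75.0%), against 14.4% of the windows of all genes tested and 19.2% of the whole table. A CCAAT box stood in 37 of the 48 (77.1%), against 38.5% and 37.4%. The CCAAT box was also in 55.0% of the replication windows and 92.3% of the histone windows, and a CHR word in 25.0% and 50.0% of these. An E2F word stood in 4.17% of the mitotic windows. The words are not exclusive: the Cdk1 stretch holds the E2F word TTTCGCGC, which is not capitalised there, and the Mcm6 and Mcm5 stretches hold CCAAT boxes. The windows of genes called at least 2-fold higher and lower were found for 78.4% and 76.3% of those genes, under the 80% needed, so their shares are void and are not given.

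Histone genes of S phase, which package new DNA, were nearly silent at 8 h and abundant at 24 h. Of 29 tested, 26 were called higher and 0 lower, with a median log2 change of 6.13, or 4.11 with the 5 genes at 0 counts at 8 h set to their lower bound. The number called higher varied from 14 to 28 under the other settings. Hist1h2ao, a copy of histone H2A, had 2785, 3243 and 2759.8 TPM at 24 h, against 7.25, 18.2 and 16.1 TPM at 8 h (log2 7.55, SE 0.32, adjusted p = 1.0e-12) and was among the 8 largest gains in TPM. Hist1h3c, a copy of H3, had 117, 106 and 94.1 TPM at 24 h, against 0, 0 and 0 TPM at 8 h, which is at least 169.9-fold higher against a floor of 3 counts over the 8 h group, and Hist1h2bk, a copy of H2B, had 57.2, 56.2 and 50.4 TPM at 24 h, against 0, 0 and 0 TPM at 8 h, at least 64.7-fold higher. Hist1h2ag (133, 148 and 132 TPM at 24 h, against 0, 0.97 and 0 TPM at 8 h), Hist2h3b (137, 142 and 121 TPM at 24 h, against 0.69, 0.32 and 0.3 TPM at 8 h) and Hist1h2ak (22.5, 15.0 and 18.9 TPM at 24 h, against 0, 0 and 0 TPM at 8 h) moved the same way. These genes are near-identical copies whose reads the counting can split between them, and their mRNAs mostly lack a poly(A) tail, so values of single copies are uncertain. Of 33 genes with 0 counts in all 8 h libraries and at least 1 TPM in each 24 h library, 15 were histones, whereas 4 genes showed the reverse.

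Outside those lists, Lrr1, a substrate adaptor of a ubiquitin ligase that unloads the replicative helicase, had 22.8, 18.6 and 23.0 TPM at 24 h, against 0, 0 and 0 TPM at 8 h, at least 127-fold higher. Hmgb2, a chromatin protein of proliferating cells, had the smallest p of all genes: 384, 384 and 394 TPM at 24 h, against 21.9, 17.6 and 21.5 TPM at 8 h, a 17.8-fold rise (log2 4.15, SE 0.10, adjusted p = 1.6e-27). Of the 30 tested genes of DNA methylation, PRC2 and chromatin assembly, 17 rose and 6 fell. The histone variant H2afz had 3072, 2961 and 3101 TPM at 24 h, against 540.0, 545 and 559.9 TPM at 8 h (log2 2.37, SE 0.09, adjusted p = 4.3e-23). Ezh2, the methyltransferase of PRC2, had 96.6, 97.6 and 102 TPM at 24 h, against 18.2, 15.9 and 15.9 TPM at 8 h (log2 2.46, SE 0.11, adjusted p = 9.4e-21). These genes did not overlap between the times, as was so upward for 27.5% of all genes tested. Dnmt1, the maintenance DNA methyltransferase, had 93.4, 99.2 and 88.7 TPM at 24 h, against 18.8, 14.5 and 20.0 TPM at 8 h (log2 2.29, SE 0.10, adjusted p = 6.3e-21). Among the 6 that fell, Kdm6b, an H3K27 demethylase, had 6.86, 7.09 and 6.41 TPM at 24 h, against 49.3, 34.8 and 44.4 TPM at 8 h (log2 -2.75, SE 0.11, adjusted p = 1.2e-21). Tet2, a 5-methylcytosine oxidase, had 2.32, 2.06 and 2.21 TPM at 24 h, against 5.71, 4.75 and 6.72 TPM at 8 h (log2 -1.49, SE 0.15, adjusted p = 1.2e-10). Ezh1, the paralog of Ezh2, had a log2 change of -1.54.

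**Figure D2:**
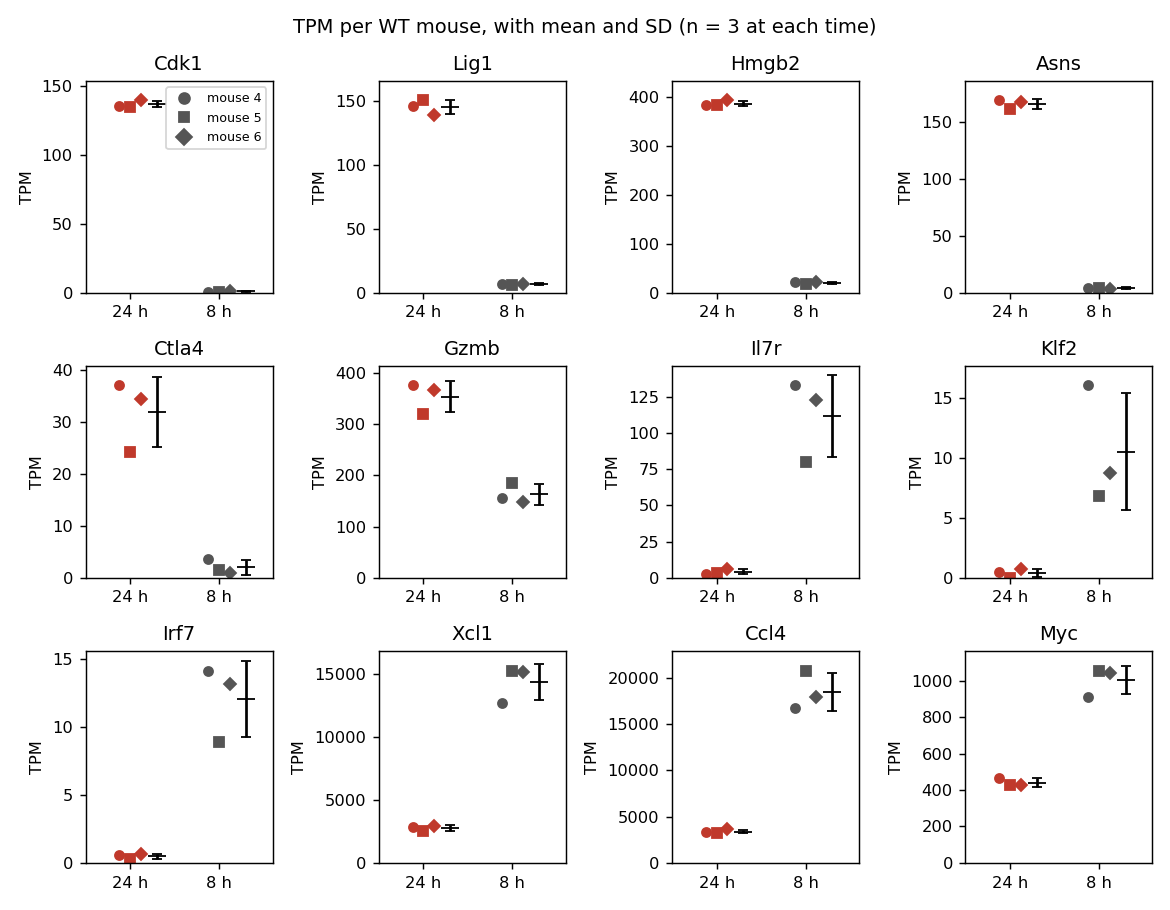
TPM of 12 genes in each WT mouse, 24 h (red) left of 8 h (grey), with the mean and SD (n = 3 at each time) beside the points; every axis starts at 0. Cdk1, Lig1, Hmgb2, Asns, Ctla4 and Gzmb are higher in all 3 mice at 24 h, and Il7r, Klf2, Irf7, Xcl1, Ccl4 and Myc lower, without overlap between times. Il7r, Klf2 and Irf7 were named by a rule that requires no overlap, which 35.7% of all genes tested showed downward and 27.5% upward.

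Regulators of the G1 to S transition changed in both directions. Of 27 tested, 16 rose and 5 fell, with a median log2 change of 0.94. Ccne1, cyclin E1, the partner of CDK2 at S phase entry, had 127, 124 and 125 TPM at 24 h, against 21.7, 18.4 and 21.9 TPM at 8 h (log2 2.50, SE 0.13, adjusted p = 8.0e-19). Ccnd3, a D-type cyclin that binds CDK4 and CDK6, had 297, 300.5 and 285 TPM at 24 h, against 88.8, 64.2 and 78.2 TPM at 8 h (log2 1.82, SE 0.10, adjusted p = 4.4e-18). Ccnd2, another D-type cyclin, had 176, 184 and 173 TPM at 24 h, against 271, 296 and 290.3 TPM at 8 h and fell (log2 -0.80, SE 0.09, adjusted p = 5.3e-09). The 24 and 8 h libraries did not overlap for any of these 3 cyclins, as was so upward for 27.5% and downward for 35.7% of all genes tested. E2f8, a repressor E2F that is itself an E2F target, had 10.3, 11.0 and 11.7 TPM at 24 h, against 0.31, 0.11 and 0.05 TPM at 8 h (log2 6.10, SE 0.41, adjusted p = 2.8e-15). The CDK inhibitors Cdkn1a and Cdkn1b fell. Cdkn1a, p21, had 18.0, 17.9 and 14.4 TPM at 24 h, against 64.8, 95.9 and 70.3 TPM at 8 h (log2 -2.32, SE 0.21, adjusted p = 3.7e-08). Each mouse fell for p21. Cdkn1b, p27, had 3.26, 3.41 and 3.28 TPM at 24 h, against 11.0, 7.01 and 9.25 TPM at 8 h (log2 -1.52, SE 0.18, adjusted p = 6.4e-09).

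DNA repair and checkpoint genes mostly rose, 27 of 35 against 2 that fell, with a median log2 change of 1.44. Rad54l, a motor protein of homologous recombination, had 36.9, 38.7 and 37.0 TPM at 24 h, against 0.21, 0.15 and 0.13 TPM at 8 h (log2 7.71, SE 0.31, adjusted p = 8.1e-22). It was near 0 in every 8 h library. Chek1, the kinase of the replication checkpoint, had 32.4, 31.2 and 28.3 TPM at 24 h, against 2.99, 2.67 and 3.28 TPM at 8 h (log2 3.25, SE 0.19, adjusted p = 3.3e-17). The 2 that fell were Mdc1 and Trp53bp1, scaffolds at double-strand breaks, with log2 changes of -0.37 and -0.47, and Mdc1 was not called under 3 of the other settings. The apical kinases Atm, Atr and Prkdc did not pass the test, at -0.06, -0.08 and 0.16, and were picked after their values were seen.

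Genes of amino acid transport and synthesis, many of them targets of the stress factor ATF4, had the largest median of the metabolic lists. Of 28 tested, 19 rose and 6 fell, with a median log2 change of 1.14. Asns, asparagine synthetase, had 169, 161 and 167 TPM at 24 h, against 4.31, 4.41 and 3.46 TPM at 8 h (log2 5.24, SE 0.19, adjusted p = 6.6e-21). Cth, which makes cysteine from cystathionine, had 192, 173 and 190.0 TPM at 24 h, against 4.14, 5.64 and 5.00 TPM at 8 h (log2 5.09, SE 0.20, adjusted p = 3.1e-17). Both were all but absent in resting cells, where Asns averaged 0.04 ± 0.0693 TPM (SD, n = 3) and Cth was at 0 in each mouse. Phgdh, the entry enzyme of serine synthesis, had 1296, 1261 and 1201 TPM at 24 h, against 265, 289 and 303 TPM at 8 h (log2 2.02, SE 0.10, adjusted p = 2.4e-19). All 3 genes rose in each mouse. Psph, its last enzyme, had 237, 239 and 242 TPM at 24 h, against 44.8, 53.6 and 48.4 TPM at 8 h (log2 2.17, SE 0.12, adjusted p = 4.5e-17). Of the 6 that fell, 5 are transporters: Slc7a6, Slc7a1, Slc1a5, Slc3a2 and Slc38a1, with log2 changes of -0.59, -0.48, -0.44, -0.30 and -0.21. Slc3a2 was not called under 10 of the 13 other settings. The sixth was the stress factor Ddit3, at -0.50, and Atf4 itself had a log2 change of 0.33. Slc38a1, Ddit3 and Atf4 were picked after their values were seen.

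Genes that charge tRNAs moved in the same direction and more weakly. Among 20 aminoacyl-tRNA synthetases 13 rose and 2 fell (median log2 0.35). Vars, for valine, had 182, 186 and 175 TPM at 24 h, against 94.1, 64.9 and 61.6 TPM at 8 h (log2 1.21, SE 0.11, adjusted p = 9.0e-12). Wars, for tryptophan, had 113, 119 and 112 TPM at 24 h, against 183, 161 and 179 TPM at 8 h and fell (log2 -0.71, SE 0.10, adjusted p = 1.0e-07). Purine and pyrimidine synthesis had 10 of 25 higher, led by Atic and Paics of the purine route at 1.03 and 0.82, and 4 lower, led by Impdh1 at -0.58.

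Many genes of energy metabolism rose by small steps. Of 47 genes of oxidative phosphorylation 37 rose and 1 fell (median log2 0.40), of 24 genes of the TCA cycle 15 rose and 2 fell (median 0.34), and of 42 mitochondrial ribosomal proteins 27 rose and 2 fell (median 0.35). Sdhd, a membrane anchor of complex II, had 222, 226 and 220.5 TPM at 24 h, against 106, 119 and 116 TPM at 8 h (log2 0.86, SE 0.11, adjusted p = 1.6e-08). In glycolysis 13 of 22 rose and 2 fell (median 0.47). Gapdh had 7069.7, 7182 and 6989 TPM at 24 h, against 2994, 3149 and 3263 TPM at 8 h, the largest gain in TPM among called genes (log2 1.07, SE 0.08, adjusted p = 1.6e-13). Tpi1, triose phosphate isomerase, had 864, 898 and 855 TPM at 24 h, against 225, 255 and 245 TPM at 8 h (log2 1.74, SE 0.13, adjusted p = 2.5e-12). Both stood clear of the 8 h libraries in every mouse. Hif1a, a transcription factor that drives glycolytic genes, and Pfkfb3, which makes an activator of phosphofructokinase, fell. Hif1a had 45.9, 44.8 and 50.7 TPM at 24 h, against 94.9, 67.4 and 70.7 TPM at 8 h (log2 -0.81, SE 0.19, adjusted p = 0.0014). Pfkfb3 had 8.92, 7.57 and 8.51 TPM at 24 h, against 19.1, 14.4 and 17.3 TPM at 8 h (log2 -1.13, SE 0.13, adjusted p = 4.4e-09). The lactate dehydrogenase Ldha had 4577, 4467 and 4500.3 TPM at 24 h, against 2943, 2989 and 2792 TPM at 8 h (log2 0.53, SE 0.09, adjusted p = 7.8e-06).

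Ribosome assembly genes mostly fell, by less than 2-fold. Of 44 ribosome biogenesis genes 1 was called higher and 33 lower (median log2 -0.34, -0.40 to -0.21 under the other settings, with 21 to 34 lower). Gnl2, a nucleolar GTPase, had 136, 127 and 119 TPM at 24 h, against 187, 207 and 204 TPM at 8 h (log2 -0.76, SE 0.09, adjusted p = 1.2e-08). The only one higher, the methyltransferase Fbl, had 188, 211 and 229 TPM at 24 h, against 215, 139 and 125 TPM at 8 h (log2 0.32, SE 0.12, adjusted p = 0.022) and lost its call without mouse 5, without mouse 6 and without the 8 h library of mouse 5. Among 81 cytosolic ribosomal protein genes 6 were higher and 33 lower, with a median of -0.14, close to the -0.12 of all genes. Under the other settings 5 to 15 were higher and 16 to 41 lower. Rps2 had 5419.5, 5869 and 5878 TPM at 24 h, against 3729.7, 2346 and 1068 TPM at 8 h, with 8 h values that differ widely between mice, and its call was lost in 3 of the 13 other settings. Its reads can be shared with near-identical copies. The precursor of ribosomal RNA, Rn45s, had 21657, 24404 and 25532 TPM at 24 h, against 40447, 47741 and 46415 TPM at 8 h (log2 -1.03, SE 0.10, adjusted p = 4.2e-08). The libraries copy polyadenylated RNA, so this level is not a measure of ribosomal RNA synthesis, which was not tested.

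For 5 lists the direction depended on the setting. Translation factors had 3 higher and 16 lower of 40, but the median of -0.05 changed sign in 10 of the 13 other settings. Proteasome genes had 7 higher and 8 lower of 36, and more were higher than lower in 10 of the settings, with 1 tie. ER folding genes had 6 higher and 8 lower of 28, a balance that was reversed in 9 settings. Splicing factors had 8 higher and 7 lower of 37, reversed in 1 setting and tied in 2. Apoptosis regulators had 7 higher and 8 lower of 28, and their median of -0.03 changed sign in 9 settings. Single members of these lists changed more. Eif4ebp1, an inhibitor of cap-dependent translation, had 489, 466 and 449 TPM at 24 h, against 88.6, 82.7 and 93.7 TPM at 8 h (log2 2.31, SE 0.13, adjusted p = 3.3e-17). The ER chaperone Hspa5 had 660.4, 634 and 655 TPM at 24 h, against 987, 1106 and 1109 TPM at 8 h (log2 -0.83, SE 0.10, adjusted p = 8.1e-09). Chaperones of the cytosol and mitochondria had 8 of 28 higher, Hspd1 and Ppia among them, where 24.6% of all genes were higher, and 0 lower. In the cytoskeleton list 15 of 40 rose and 9 fell, with Stmn1, a tubulin-binding protein of dividing cells, at 482, 492 and 483 TPM at 24 h, against 23.4, 14.5 and 22.6 TPM at 8 h (log2 4.51, SE 0.15, adjusted p = 4.1e-24). Tuba1b had 4613, 4666 and 4479 TPM at 24 h, against 1735, 1794 and 1722 TPM at 8 h (log2 1.28, SE 0.08, adjusted p = 1.5e-15).

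**Figure D3:**
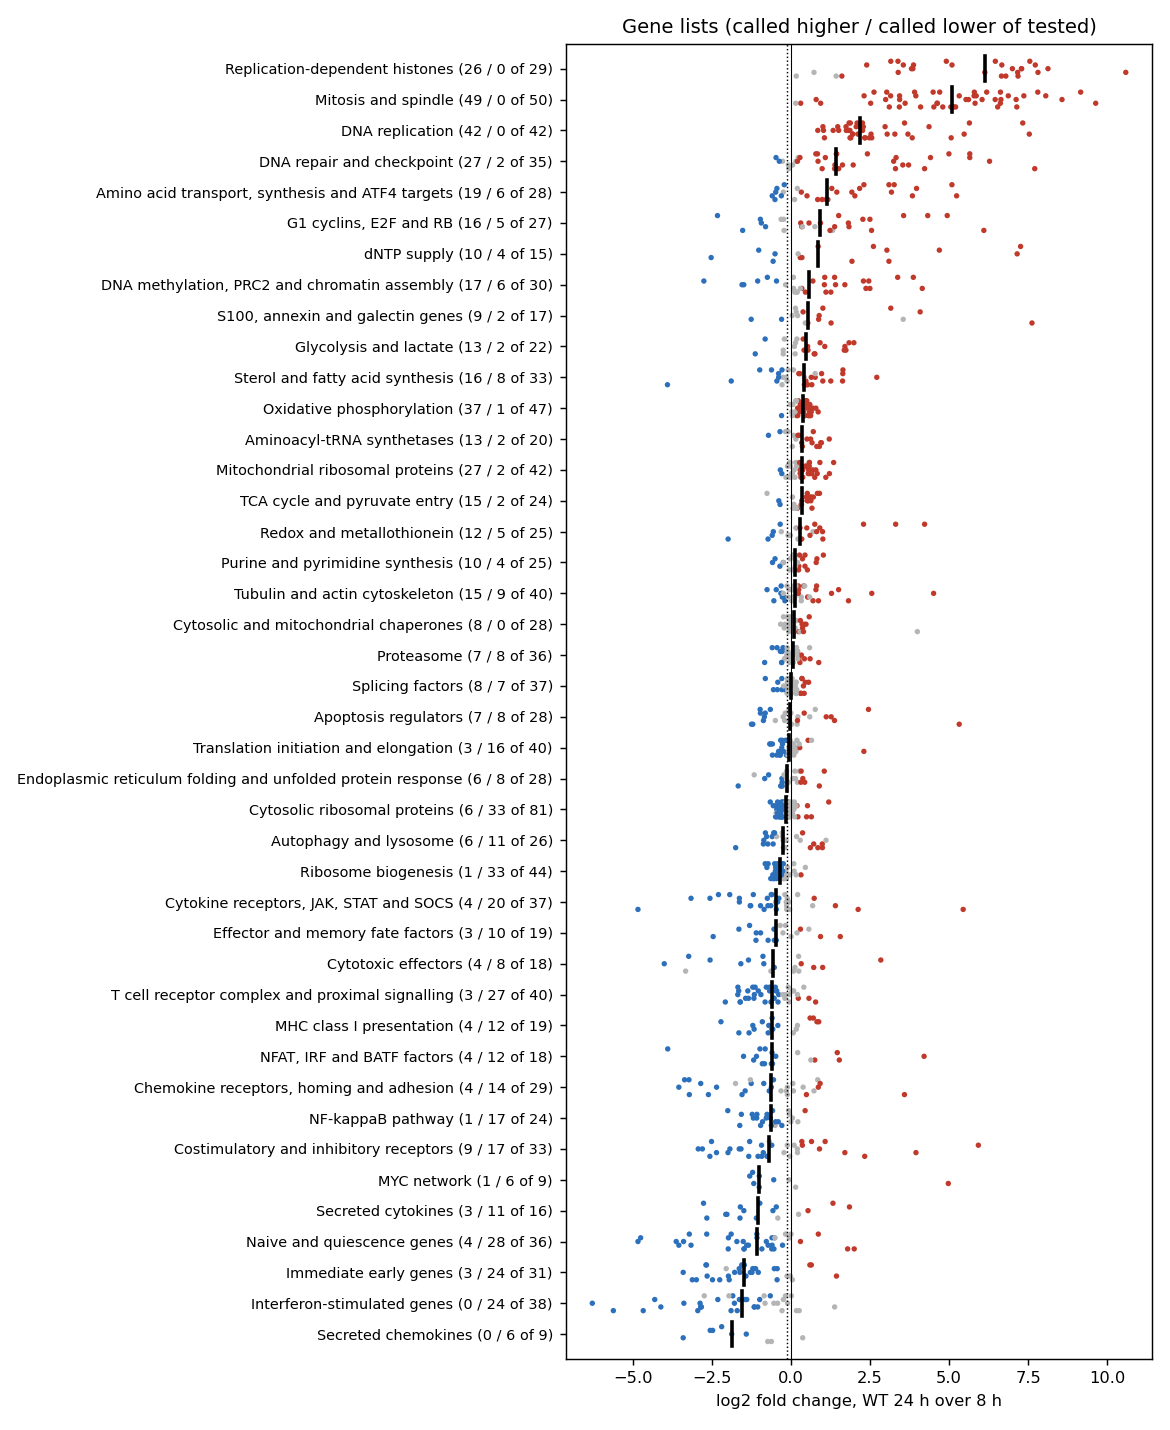
Log2 fold change, WT 24 h over 8 h, of each tested member of 42 gene lists, ordered by median from top to bottom. Red points were called higher, blue lower and grey neither; black bars are medians, the dotted line is the median of all genes tested, -0.12, and the numbers in the labels are called higher, called lower and tested. Histones, mitosis and replication lie at the top, and chemokines, interferon-stimulated and immediate early genes at the bottom.

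The first wave of activation genes was receding. Of 31 immediate early genes 24 were lower and 3 higher (median log2 -1.47). Egr2, a zinc finger factor induced by calcium signalling, had 26.0, 23.5 and 24.9 TPM at 24 h, against 120.1, 125 and 138 TPM at 8 h (log2 -2.48, SE 0.12, adjusted p = 8.4e-19). Among members picked after their values were seen, Fos had 2.52, 2.85 and 3.05 TPM at 24 h, against 24.5, 26.8 and 30.8 TPM at 8 h (log2 -3.40, SE 0.20, adjusted p = 4.5e-16). The orphan nuclear receptor Nr4a1 had 143, 126 and 109 TPM at 24 h, against 700.3, 744 and 805 TPM at 8 h (log2 -2.68, SE 0.14, adjusted p = 3.4e-13). Nr4a1 averaged 17.7, 1871, 750.0 and 126 TPM at 0, 4, 8 and 24 h, so it was still above its resting level. The 3 that rose were Jund, Jun and Dusp10, and without mouse 5 only Jund was called. Jund had 2.05, 3.17 and 2.44 TPM at 24 h, against 1.31, 0.62 and 0.78 TPM at 8 h (log2 1.44, SE 0.35, adjusted p = 7.4e-04).

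Most transcription factors downstream of the receptor fell too. In the NF-kappaB pathway 17 of 24 were lower and 1 higher (median -0.63). The subunit Rel had 57.7, 50.3 and 50.9 TPM at 24 h, against 168, 135 and 152 TPM at 8 h (log2 -1.62, SE 0.10, adjusted p = 4.9e-16). Nfkbiz, a nuclear cofactor, had 11.1, 8.01 and 10.1 TPM at 24 h, against 41.2, 32.4 and 34.6 TPM at 8 h (log2 -2.00, SE 0.12, adjusted p = 6.2e-17). In the MYC network 6 of 9 were lower, Myc itself with 467, 429 and 425 TPM at 24 h, against 913, 1056 and 1040.4 TPM at 8 h (log2 -1.30, SE 0.09, adjusted p = 4.3e-14). The 1 called higher was Mxd3, which competes with MYC for MAX and is expressed in S phase, at 9.27, 8.84 and 8.59 TPM at 24 h, against 0.24, 0 and 0.5 TPM at 8 h (log2 4.98, SE 0.58, adjusted p = 6.2e-09). At 24 h Myc was above its resting level, with 144, 1161, 1003 and 441 TPM at 0, 4, 8 and 24 h. Of 18 NFAT, IRF and BATF genes 4 were higher and 12 lower. Irf4 had 104, 101 and 101 TPM at 24 h, against 293, 227 and 287 TPM at 8 h (log2 -1.50, SE 0.21, adjusted p = 9.4e-06). Its partner Batf had 115, 112 and 104 TPM at 24 h, against 32.7, 39.4 and 33.9 TPM at 8 h (log2 1.53, SE 0.14, adjusted p = 6.3e-12). IRF4 and BATF bind DNA together, and their genes changed in opposite directions. Batf3, from 87 counts at 24 h and 3 at 8 h, had a ratio of 20.6 (95% counting interval 6.82 to 102).

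Of the 19 factors of effector and memory fate 3 rose and 10 fell, where 24.6% of all genes rose and 34.1% fell. Zbtb32, a repressor induced by activation, had 163, 167 and 159 TPM at 24 h, against 45.9, 56.4 and 50.2 TPM at 8 h (log2 1.56, SE 0.20, adjusted p = 9.7e-07). Bcl6, a repressor linked to memory, had 0.89, 0.9 and 1.36 TPM at 24 h, against 5.36, 5.41 and 5.32 TPM at 8 h (log2 -2.46, SE 0.29, adjusted p = 4.6e-09). Tcf7, which encodes TCF1, had 62.6, 77.0 and 68.8 TPM at 24 h, against 87.3, 52.6 and 81.3 TPM at 8 h; the libraries overlapped and the gene was not called (log2 -0.17, SE 0.12, adjusted p = 0.24). Lef1, its relative, had 72.6, 71.3 and 66.6 TPM at 24 h, against 94.4, 77.4 and 97.4 TPM at 8 h (log2 -0.54, SE 0.11, adjusted p = 5.1e-05). The mean of each was lower at 8 h than at 0 h, with means over 0, 4, 8 and 24 h of 539.5, 192, 73.8 and 69.4 TPM for Tcf7 and 432, 161, 89.7 and 70.2 TPM for Lef1.

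Genes of secreted products separated into an early set that declined and a few that were higher at 24 h. No chemokine was called higher and 6 of 9 were called lower (median log2 -1.87). Ccl4, an inflammatory chemokine, had 3337, 3215 and 3620.1 TPM at 24 h, against 16775, 20813 and 17955 TPM at 8 h (log2 -2.55, SE 0.15, adjusted p = 3.5e-11). Xcl1, which attracts cross-presenting dendritic cells, had 2812, 2521 and 2939.8 TPM at 24 h, against 12693, 15255 and 15122 TPM at 8 h (log2 -2.47, SE 0.15, adjusted p = 3.5e-11). Ccl3 had 1734, 1712 and 1931 TPM at 24 h, against 5494, 6862 and 5921 TPM at 8 h (log2 -1.87, SE 0.15, adjusted p = 2.0e-08). Together with Rn45s these were the largest losses in TPM among called genes, and all 3 remained far above their 0 h means, which were 0.663 ± 1.15 TPM for Ccl4, 0.367 ± 0.635 TPM for Xcl1 and 0 TPM for Ccl3. Of the cytokines 11 of 16 were lower and 3 higher. Tnf had 238, 241 and 225 TPM at 24 h, against 811, 955 and 882 TPM at 8 h (log2 -2.02, SE 0.12, adjusted p = 1.6e-14). Tnfsf14, the ligand LIGHT, had 57.0, 47.2 and 49.2 TPM at 24 h, against 289, 339.9 and 332 TPM at 8 h (log2 -2.76, SE 0.13, adjusted p = 2.5e-16). Ifng and Il2 were picked after their values were seen. Interferon gamma, Ifng, had 114, 119 and 153 TPM at 24 h, against 275, 342 and 383 TPM at 8 h (log2 -1.49, SE 0.19, adjusted p = 2.8e-06). Il2 had 1412, 1474 and 1361 TPM at 24 h, against 2191, 3234 and 2308 TPM at 8 h (log2 -0.98, SE 0.20, adjusted p = 6.3e-04). Both fell without overlap, as was so downward for 35.7% of all genes tested, and Il2 stayed abundant. Tnfsf11, RANKL, went the other way with 106, 113 and 143 TPM at 24 h, against 49.3, 26.3 and 20.3 TPM at 8 h (log2 1.85, SE 0.30, adjusted p = 4.4e-05). Osm, oncostatin M, had 13.5, 11.1 and 11.0 TPM at 24 h, against 4.52, 3.51 and 5.14 TPM at 8 h (log2 1.33, SE 0.23, adjusted p = 7.3e-06).

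Cytotoxic genes changed in both directions. Of 18 tested, 4 rose and 8 fell, where 24.6% of all genes rose and 34.1% fell. The number higher was 2 without mouse 4 and 6 under RLE scaling, and the median log2 of -0.58 was -0.20 without mouse 5 and -0.21 without the 8 h library of mouse 5. Gzmb, granzyme B, had 376, 319.7 and 367 TPM at 24 h, against 156, 186 and 148 TPM at 8 h (log2 1.00, SE 0.17, adjusted p = 4.0e-05). Gzmc, a granzyme encoded near it, had 5.45, 7.50 and 3.97 TPM at 24 h, against 103, 93.1 and 62.5 TPM at 8 h (log2 -4.00, SE 0.25, adjusted p = 1.3e-12). Gzmb did not overlap between the times, as was so upward for 27.5% of all genes tested. Gzmc was named by a rule that requires no overlap. Klrd1, the CD94 receptor chain, had 8.36, 4.61 and 7.51 TPM at 24 h, against 72.4, 49.2 and 60.6 TPM at 8 h (log2 -3.23, SE 0.18, adjusted p = 8.8e-18). Klrd1 was lower at 24 h in every mouse. Ctsw, a protease of cytotoxic cells, had 47.8, 42.0 and 45.0 TPM at 24 h, against 238, 243 and 256 TPM at 8 h (log2 -2.55, SE 0.11, adjusted p = 4.0e-21). Perforin, Prf1, chosen after its values were seen, had 30.5, 30.5 and 36.2 TPM at 24 h, against 54.1, 56.1 and 56.0 TPM at 8 h (log2 -0.88, SE 0.20, adjusted p = 7.4e-04).

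Genes of the naive and quiescent state mostly fell, and a few rose. Of 36 tested, 28 were lower and 4 higher (median log2 -1.07). Il7r, the receptor for the survival cytokine IL-7, had 2.90, 3.55 and 6.02 TPM at 24 h, against 133, 79.6 and 122 TPM at 8 h (log2 -4.83, SE 0.29, adjusted p = 1.7e-10). Klf2, a factor that maintains quiescence and recirculation, had 0.49, 0 and 0.71 TPM at 24 h, against 16.1, 6.82 and 8.76 TPM at 8 h (log2 -4.75, SE 0.35, adjusted p = 9.2e-14). The GTPases Gimap4 and Gimap3 had log2 changes of -1.98 and -1.89. All 3 mice were far below their 8 h values for Il7r and Klf2, with the 8 h library of mouse 5 the lowest of the 8 h group in each. The 4 that rose were Dapl1, Igfbp4, Ccr7 and Foxo1. Ccr7, the receptor for lymph node homing, had 610.3, 634 and 586 TPM at 24 h, against 326, 281 and 329 TPM at 8 h (log2 0.87, SE 0.08, adjusted p = 1.2e-11). Dapl1, a marker of naive cells, had 168, 171 and 184 TPM at 24 h, against 43.6, 32.5 and 47.1 TPM at 8 h (log2 2.00, SE 0.14, adjusted p = 1.5e-14). Over 0, 4, 8 and 24 h Ccr7 averaged 921, 481, 312 and 610.1 TPM, Dapl1 776, 51.6, 41.1 and 174 TPM and Igfbp4 329, 22.2, 10.3 and 38.1 TPM, so that 8 h was the low point of each and 24 h lay below the level at 0 h. Foxo1 gained only 0.30 in log2 terms and was not called without mouse 4 or without mouse 6.

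**Figure D4:**
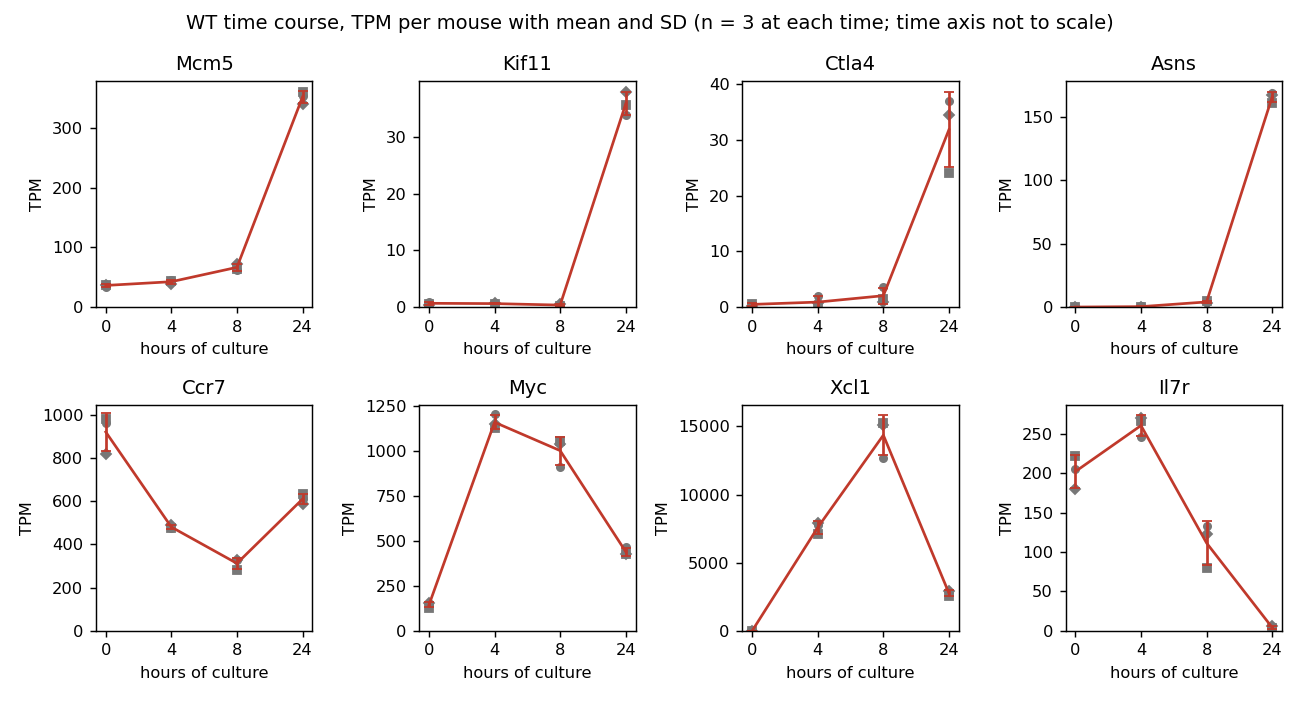
TPM of 8 genes in the 3 WT mice at 0, 4, 8 and 24 h (grey points), with mean and SD in red (n = 3 at each time; the time axis is not to scale). Mcm5, Kif11, Ctla4 and Asns stand highest at 24 h, Ccr7 is lowest at 8 h, Myc is highest at 4 h, Xcl1 at 8 h and Il7r at 4 h, and Il7r is near 0 at 24 h.

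More homing and cytokine receptor genes fell than rose, as was so over all genes tested, of which 34.1% fell and 24.6% rose. Of 29 chemokine receptor, homing and adhesion genes 4 rose and 14 fell. Itgae, the CD103 integrin chain, had 3.31, 3.65 and 4.04 TPM at 24 h, against 35.4, 23.8 and 37.1 TPM at 8 h (log2 -3.22, SE 0.15, adjusted p = 2.9e-18). Cxcr6, a receptor of tissue-resident cells, had 21.2, 16.7 and 22.5 TPM at 24 h, against 105, 119 and 115 TPM at 8 h (log2 -2.61, SE 0.14, adjusted p = 1.7e-15). Ccr4, a skin-homing receptor that also stands in the list of CD4 T cell markers, had 25.1, 19.5 and 16.8 TPM at 24 h, against 1.94, 0.93 and 1.92 TPM at 8 h (log2 3.59, SE 0.32, adjusted p = 1.0e-10). Of 37 cytokine receptor, JAK, STAT and SOCS genes 4 rose and 20 fell. Socs2, a feedback inhibitor downstream of STAT5, had 6.70, 7.31 and 6.87 TPM at 24 h, against 0.14, 0 and 0.3 TPM at 8 h (log2 5.45, SE 0.57, adjusted p = 3.3e-10). Il6ra, the IL-6 receptor, had 0.62, 1.13 and 1.07 TPM at 24 h, against 7.68, 7.62 and 8.21 TPM at 8 h (log2 -3.16, SE 0.24, adjusted p = 1.1e-13). Il2ra, the high-affinity chain of the IL-2 receptor, was chosen after its values were seen and had 62.7, 58.2 and 58.3 TPM at 24 h, against 95.2, 76.8 and 85.4 TPM at 8 h, a modest fall (log2 -0.62, SE 0.10, adjusted p = 4.2e-06).

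Genes of costimulatory and inhibitory surface receptors changed in both directions. Of 33 tested, 9 rose and 17 fell, where 24.6% of all genes rose and 34.1% fell. Ctla4, the inhibitory receptor for CD80 and CD86, had 37.0, 24.1 and 34.4 TPM at 24 h, against 3.69, 1.47 and 0.97 TPM at 8 h (log2 3.95, SE 0.37, adjusted p = 2.6e-09). Tigit, an inhibitory receptor for nectin family ligands, had 63.1, 66.6 and 65.0 TPM at 24 h, against 14.7, 7.35 and 14.6 TPM at 8 h (log2 2.33, SE 0.27, adjusted p = 2.6e-08). Tnfrsf4, OX40, had 319, 302 and 311 TPM at 24 h, against 87.7, 91.1 and 86.7 TPM at 8 h (log2 1.71, SE 0.14, adjusted p = 3.3e-12). All 3 were higher in every mouse at 24 h. Lag3, which binds MHC class II, had 138, 138 and 134 TPM at 24 h, against 66.8, 57.7 and 55.7 TPM at 8 h (log2 1.08, SE 0.14, adjusted p = 1.6e-07). The costimulatory receptor Cd28 had 43.2, 41.2 and 39.6 TPM at 24 h, against 27.8, 11.6 and 23.6 TPM at 8 h (log2 0.91, SE 0.18, adjusted p = 1.5e-04). These 5 did not overlap between the times, as was so upward for 27.5% of all genes tested. Slamf1 had 29.4, 26.2 and 23.9 TPM at 24 h, against 178, 169.5 and 166 TPM at 8 h (log2 -2.80, SE 0.10, adjusted p = 8.1e-23). Among receptors chosen after their values were seen, the early activation antigen Cd69 had 397, 361 and 387 TPM at 24 h, against 1076, 1098 and 999.5 TPM at 8 h (log2 -1.58, SE 0.12, adjusted p = 2.5e-11). Pdcd1, PD-1, had 84.9, 75.2 and 80.9 TPM at 24 h, against 172, 211 and 177 TPM at 8 h (log2 -1.33, SE 0.17, adjusted p = 7.4e-07). Tnfrsf9, 4-1BB, had 91.3, 73.2 and 81.5 TPM at 24 h, against 322, 269.7 and 284 TPM at 8 h (log2 -1.93, SE 0.16, adjusted p = 9.5e-10).

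RNAs of the T cell receptor machinery itself were mostly lower. Of 40 tested, 27 were lower and 3 higher (median log2 -0.58). Zap70, the kinase recruited to the receptor, had 199, 188 and 193 TPM at 24 h, against 409, 419 and 412 TPM at 8 h (log2 -1.20, SE 0.09, adjusted p = 7.0e-14). The phosphatase Ptpn22, which restrains receptor signalling, had 57.7, 52.4 and 54.7 TPM at 24 h, against 212, 205 and 227 TPM at 8 h (log2 -2.07, SE 0.09, adjusted p = 2.2e-20). Both fell in all mice without overlap, as was so downward for 35.7% of all genes tested. Csk, the kinase that inhibits LCK, rose, with 65.9, 74.5 and 72.0 TPM at 24 h, against 41.6, 34.1 and 39.8 TPM at 8 h (log2 0.78, SE 0.10, adjusted p = 3.7e-08).

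Most interferon-stimulated genes fell. None of 38 tested was called higher and 24 were called lower (median log2 -1.54, -1.57 to -0.98 under the other settings, with at most 1 higher). Irf7, the factor that amplifies type I interferon, had 0.58, 0.29 and 0.63 TPM at 24 h, against 14.2, 8.88 and 13.1 TPM at 8 h (log2 -4.67, SE 0.38, adjusted p = 1.5e-10). Rtp4, an interferon-induced chaperone, had 0.8, 0.87 and 0.47 TPM at 24 h, against 45.2, 28.8 and 28.5 TPM at 8 h, the largest log2 fall among the genes named by size (log2 -5.61, SE 0.60, adjusted p = 4.5e-07). Both were at or under 1 TPM in each 24 h library. Ifit3, which acts with other IFIT proteins on viral RNA, had 0.5, 0.25 and 1.37 TPM at 24 h, against 14.3, 12.4 and 13.0 TPM at 8 h (log2 -4.30, SE 0.66, adjusted p = 2.7e-05). Irf7 averaged 81.8, 39.4, 12.1 and 0.5 TPM at 0, 4, 8 and 24 h. In MHC class I presentation 4 of 19 rose and 12 fell, where 24.6% of all genes rose and 34.1% fell. B2m, the light chain of class I molecules, had 2461, 2119 and 2415 TPM at 24 h, against 6137, 5181 and 5139 TPM at 8 h (log2 -1.32, SE 0.08, adjusted p = 2.9e-16). H2-Q9, a non-classical heavy chain that shares sequence with its neighbours, had 88.2, 101 and 86.8 TPM at 24 h, against 415, 380.1 and 401 TPM at 8 h (log2 -2.21, SE 0.12, adjusted p = 5.0e-16). Both fell in every mouse. Psmb8, a catalytic subunit of the immunoproteasome, had 631, 658 and 603 TPM at 24 h, against 336, 304 and 321 TPM at 8 h and rose (log2 0.88, SE 0.10, adjusted p = 4.3e-09).

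The remaining large falls belong to genes of several kinds. Pydc3, a pyrin domain protein, had 1.14, 1.33 and 1.84 TPM at 24 h, against 46.3, 33.3 and 39.9 TPM at 8 h (log2 -4.87, SE 0.26, adjusted p = 2.0e-12). Pyhin1, of the same interferon-inducible family, had 3.54, 3.45 and 3.06 TPM at 24 h, against 45.6, 31.4 and 40.2 TPM at 8 h (log2 -3.63, SE 0.24, adjusted p = 2.2e-10). Hsd11b1, which regenerates active glucocorticoid, had 2.42, 1.89 and 2.37 TPM at 24 h, against 48.9, 43.4 and 50.7 TPM at 8 h (log2 -4.53, SE 0.20, adjusted p = 5.1e-19). These 3 genes were low in all 24 h libraries. Cd7, a surface glycoprotein, had 0.72, 1.02 and 0.56 TPM at 24 h, against 21.8, 8.00 and 15.4 TPM at 8 h (log2 -4.28, SE 0.43, adjusted p = 2.2e-08). Trp53inp1, a p53 target, had 1.67, 1.42 and 0.95 TPM at 24 h, against 18.8, 14.3 and 18.3 TPM at 8 h (log2 -3.76, SE 0.18, adjusted p = 3.4e-18). Fcrl6 had 0.24, 0.16 and 1.99 TPM at 24 h, against 17.8, 6.71 and 5.77 TPM at 8 h, with mouse 4 well above the others at 8 h (log2 -3.66, SE 0.66, adjusted p = 1.0e-04). Except for Fcrl6, the mean of each was highest at 0 or 4 h. Among abundant genes, Eef1a1, an elongation factor, had 9656, 9377 and 9256 TPM at 24 h, against 11288, 11025 and 11460.5 TPM at 8 h (log2 -0.36, SE 0.06, adjusted p = 7.5e-06). Tpt1, a growth-related translation protein, had 3286, 3184 and 3394 TPM at 24 h, against 5680.4, 4252 and 5300.4 TPM at 8 h (log2 -0.71, SE 0.07, adjusted p = 2.4e-11). The ribosomal protein gene Rps14 had 4199, 4196 and 4143 TPM at 24 h, against 5252, 5515 and 5279.9 TPM at 8 h (log2 -0.45, SE 0.07, adjusted p = 3.6e-06). All 3 were lower in every mouse by less than 2-fold. Among abundant genes that rose, Ppia, cyclophilin A, had 10911, 11073 and 10825 TPM at 24 h, against 7353, 8693 and 7857 TPM at 8 h (log2 0.36, SE 0.08, adjusted p = 5.0e-04). Actg1, gamma actin, had 4026, 4092 and 4080.0 TPM at 24 h, against 2624, 2607 and 2624 TPM at 8 h (log2 0.53, SE 0.07, adjusted p = 1.4e-07).

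The same interval was measured in cells labelled cKO, from other mice. The targeted gene was not lower at the gene level at 0 or 8 h: Tcf7 averaged 695 ± 21.0 TPM in cells labelled cKO and 539.5 ± 35.6 TPM in WT cells at 0 h, and 103 ± 26.9 against 73.8 ± 18.5 TPM at 8 h (SD, n = 3 each). At 24 h it was lower in cells labelled cKO, 37.2 against 69.4 TPM. Which exons are flanked by loxP is not stated in the labels, so the gene level does not check them. In this group an effect of carrying Cre and one of losing Tcf7 cannot be told apart. Between 8 and 24 h, 6573 genes were called in cells labelled cKO (57.3%), 2886 higher (25.2%) and 3687 lower (32.1%). Of the genes called higher in WT, 2405 (85.1%) were called higher there too, which is 83.3% of the list from cells labelled cKO. Of those called lower in WT, 3163 (80.9%) were called lower there, 85.8% of that list. No gene was called in opposite directions.

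The difference between the WT change and the change in cells labelled cKO was called for 1 gene of 11470 (0.00872%), and 508 genes (4.43%) had an unadjusted p under 0.05. That gene was Tcf7. It stood at 69.4 ± 7.23 TPM at 24 h and 73.8 ± 18.5 TPM at 8 h in WT cells, and at 37.2 ± 1.34 and 103 ± 26.9 TPM in cells labelled cKO (SD, n = 3 each). Its log2 change was -0.17 in WT and -1.50 in cells labelled cKO, a difference of 1.33 (adjusted p = 0.00032). For 3 other genes the difference was not called: the log2 changes were for Lef1 -0.54 and -0.65, for Cxcr6 -2.61 and -2.38, and for Cd28 0.91 and 0.59, in WT and in cells labelled cKO.

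**Figure D5:**
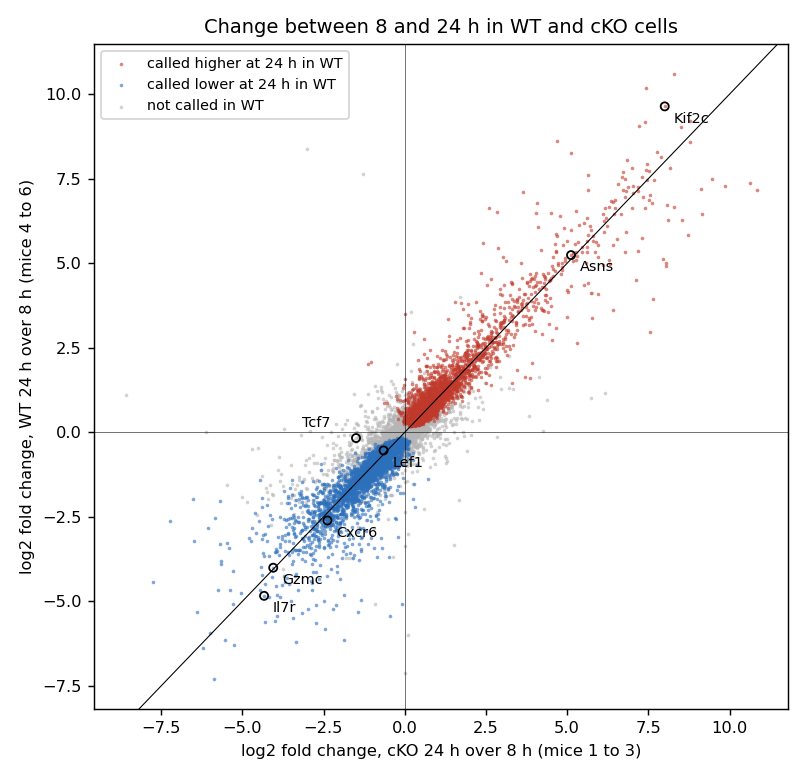
Log2 fold change, 24 h over 8 h, of each gene in WT cells (vertical, mice 4 to 6) against cells labelled cKO (horizontal, mice 1 to 3), coloured by the call in WT, with the line of equality. Tcf7 lies above the line, at -0.17 in WT and -1.50 in cells labelled cKO, and Asns and Gzmc lie close to it.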

How the data were processed

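Per the labels' protocols, the 24 libraries are Smart-Seq2 populations without molecular identifiers. Per the submitters' processing notes, STAR, RSEM and DESeq2 were used with mm10; their versions are not stated in the labels. The deposited tables, 1 per library, hold RSEM's estimated (expected) count of each gene and its TPM, per the file headers. Expected counts deposited by the authors entered edgeR 4.0.16 (R 4.3.3) after rounding (TMM scaling, low counts filtered over the 8 groups, 1 robust quasi-likelihood fit of all 24 libraries, two-sided tests, Benjamini-Hochberg adjustment within each comparison of 11470 genes). Levels are TPM. The standard error (SE) is the absolute log2 change divided by the root of the F statistic. Folds against 0 counts are bounded at 3 counts over the group, and ratios from 1 to 3 counts carry a 95% exact interval, which covers counting error only. Counts were simulated for this comparison, with 11022 genes tested and only 67, 67 and 66 genes changed by log2 0.5, 1 and 2. Of these, 43.3, 94.0 and 98.5% were recovered, and 6.0% of calls in the simulation were false. The changed genes were drawn only from those above a minimum mean CPM, so recovery among genes with fewer counts was not tested. In the data 6735 of 11470 genes were called (58.7%), a far larger share than was changed in the simulation. The 6.0% is therefore not a rate for the 6735 calls, whose false share was not tested.

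The 42 gene lists, the motifs and the rule for naming genes were chosen with earlier results of these data known. The rule names the 12 largest called increases and decreases (10 TPM or more on average at the higher time, no overlap in CPM, no unnamed gene models), the 8 largest gains and losses in TPM, up to 4 called members per list and direction by smallest adjusted p, the 4 smallest adjusted p of all, up to 6 of the smallest in the interaction, and Tcf7, Lef1, Cxcr6 and Cd28. Other list members were named after their values were seen. The same mice gave the 8 and 24 h libraries by title; the deviations of the 2 libraries of a mouse from their group means correlated over genes at 0.046, 0.056 and -0.039 for mice 4, 5 and 6. Alternatives tried were RLE scaling, removal of Rn45s, no filter, a 5 CPM filter, DESeq2 1.42.0, limma 3.58.1 on log2(TPM + 1) and log2(TPM + 0.1), the 2 groups alone, a replicate block, and leaving out each mouse or the 8 h library of mouse 5. RefSeq promoters (GRCm38.p6) were matched by symbol or by a synonym of 1 gene only, for 9221 of the 11470 genes.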

Additional observations from a re-analysis of the deposited data

Results flagged for a closer look

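The change of Tcf7 between 8 and 24 h differed between WT and cells labelled cKO by 1.33 on the log2 scale, tested as an interaction (edgeR, adjusted p = 0.00032). Its log2 change was -0.17 in WT, higher in 1 of 3 mice, and -1.50 in cells labelled cKO. It is the gene that the labels give as targeted.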

How the results depend on the processing

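Depth limits genes with few counts at either time, among them mitotic and histone genes at 8 h. Of the 305 named genes called, at most 18 lost the call under any 1 alternative, up to 3 were not tested there, and none changed direction. The fit with the replicate block, which pairs the libraries of a mouse, called 6698 genes, against 6735 without it, and lost 1 named gene, Lamp1; it moved no count of calls by more than 1.5 times. Genes called higher and lower numbered 3253 and 3431 under RLE scaling and 3348 and 3353 without Rn45s, against 2825 and 3910. Genes called with at least 2-fold change numbered 1849 in limma on log2(TPM + 1), against 2910. The difference between WT and cells labelled cKO was called for 2 genes with no filter and for 2 in limma on log2(TPM + 1), against 1. Leaving out a mouse at a time gave 5598 to 5869 genes called, 2393 to 2559 higher, 3188 to 3406 lower and 2715 to 2823 with at least 2-fold change; without the WT 8 h library of mouse 5 these were 6441, 2791, 3650 and 3010. Of the 42 lists, 37 kept the sign of their median and the balance of higher and lower calls under the 13 alternatives, and 5 did not, ties included: translation factors, ER folding, proteasome, splicing and apoptosis.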

Other observations

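Over all genes tested, 24.6% were called higher and 34.1% lower, and the counts below are read against these shares. Redox genes rose in 12 of 25 cases and fell in 5. The glutathione peroxidase Gpx4, which protects membrane lipids, had 304, 332 and 311 TPM at 24 h, against 58.3, 53.8 and 67.8 TPM at 8 h (log2 2.30, SE 0.11, adjusted p = 8.7e-20). The metallothionein Mt1 had 38.4, 45.5 and 51.5 TPM at 24 h, against 5.27, 1.32 and 0.91 TPM at 8 h (log2 4.23, SE 0.44, adjusted p = 1.6e-09). The peroxiredoxin Prdx4 had 61.8, 61.0 and 61.3 TPM at 24 h, against 5.20, 3.53 and 8.41 TPM at 8 h (log2 3.31, SE 0.27, adjusted p = 7.2e-13). All 3 stood apart from their 8 h values in each mouse. Of 17 S100, annexin and galectin genes 9 rose and 2 fell, with Lgals1, galectin-1, at 60.2, 49.8 and 50.3 TPM at 24 h, against 5.32, 6.36 and 4.84 TPM at 8 h (log2 3.16, SE 0.26, adjusted p = 1.7e-12). In sterol and fatty acid synthesis 16 of 33 rose and 8 fell. Scd2, a fatty acid desaturase, had 6.46, 7.26 and 5.54 TPM at 24 h, against 0.83, 0.79 and 1.07 TPM at 8 h (log2 2.72, SE 0.24, adjusted p = 5.1e-12). Abcg1, a cholesterol exporter, had 1.55, 2.13 and 1.73 TPM at 24 h, against 6.54, 4.92 and 7.23 TPM at 8 h (log2 -1.89, SE 0.17, adjusted p = 4.7e-12).

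Of 28 apoptosis regulators 7 rose and 8 fell, near those shares, and the counts were tied in 8 of the 13 alternatives. Birc5, survivin, which also acts in mitosis, had 301, 321 and 283 TPM at 24 h, against 2.98, 3.21 and 3.66 TPM at 8 h (log2 5.32, SE 0.34, adjusted p = 2.2e-10). Its TPM values differ by more than this log2 change, which was fitted on counts. The change ran from 5.28 to 6.48 under the 13 other settings. Bcl2l11, the death-promoting BIM, had 5.76, 6.57 and 5.55 TPM at 24 h, against 11.1, 10.3 and 11.5 TPM at 8 h (log2 -0.97, SE 0.12, adjusted p = 2.4e-08). Of 26 autophagy and lysosome genes 6 rose and 11 fell. Sqstm1, the p62 cargo receptor, had 121, 123 and 119.7 TPM at 24 h, against 380.1, 371 and 382 TPM at 8 h (log2 -1.75, SE 0.09, adjusted p = 3.0e-19). Ctsb, cathepsin B, had 49.9, 57.4 and 51.0 TPM at 24 h, against 23.6, 25.4 and 24.4 TPM at 8 h (log2 0.99, SE 0.10, adjusted p = 5.9e-11).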
